A study of Mus musculus with 28 samples.

Results

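Retinoic acid synthesis and response is described here through 9 genes of the 37206 genes formed from the deposited table. The 9 members were given as a list of gene names, chosen with earlier results of these data known. They are the retinol dehydrogenase *Rdh10*, the retinaldehyde reductase *Dhrs3*, the retinaldehyde dehydrogenases *Aldh1a1* and *Aldh1a2*, the binding protein *Crabp1*, the degrading enzyme *Cyp26b1*, the nuclear receptors *Rara* and *Rarg*, and the meiotic entry gene *Stra8*. Each was followed in 28 polyA RNA libraries from 13 mice, in flow-sorted germ cells of 4 stages, whole testes and an ovary.

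Retinoic acid is made from vitamin A in sequential oxidations, from retinol to retinaldehyde and from retinaldehyde to the acid, and *Dhrs3* runs the first step backwards. Inside the cell it is held by binding proteins, broken down by enzymes of the CYP26 family, and read by nuclear receptors that bind DNA as dimers with the RXR proteins. In the testis it drives the differentiation of spermatogonia and their entry into meiosis, where *Stra8* is its best known target, and in the fetal ovary it starts meiosis in oogonia.

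All libraries carry the strain label C57BL/6, from a colony that the study's methods describe as mixed 129SvEvBrd:C57BL/6 at its start, and the constitutive knockout replaces exon 1 and part of intron 1 of *Csmd1* with a lacZ/neomycin cassette. The spermatogonia came from 2 wildtype and 2 knockout mice, the primary spermatocytes from 2 wildtypes and 4 knockouts, secondary spermatocytes from 2 wildtypes against 3 knockouts, spermatids from 3 wildtypes against 2 knockouts, whole testes from 2 wildtypes against 5 knockouts, and the ovary from 1 wildtype, so nothing about the ovary was tested. The sorting protocol used sexually mature males of 40 ± 1 days, 1 testis of a mouse going to sorting and the other to whole tissue, but whole testes of sexually immature males were sequenced as well, and the age of each library is not given here. Estimated depth, from the smallest step between low values, ran from 23820311 mapped reads (wildtype 351 spermatids) to 61682820 (wildtype 648 secondary spermatocytes), with a median of 45388138 over 27 libraries.

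The knockout could not be checked in these values. Summed over its transcripts, *Csmd1* stood at 1.25 and 0.058 RPKM (reads scaled by transcript length and by mapped reads) in the wildtype testes of mice 178 and 648, and at 2.10, 0.217, 1.76, 0.396 and 0.184 RPKM in the knockout testes of mice 214, 269, 273, 286 and 308. In sorted cells it ranged from 0.033 to 1.66 RPKM over 9 wildtype libraries and from 0.049 to 6.33 RPKM over 11 knockout libraries, and the ovary had 14.6 RPKM. The full-length transcript alone was at 0.264 and 0.025 RPKM in the wildtype testes and at 0.629, 0.039, 0.535, 0.071 and 0.028 RPKM in the knockout testes in the same order. Neither quantity was lower throughout the knockouts, and a value over all exons of a transcript does not measure the deleted segment, so it is no check of the deletion. Genotype therefore rests on the labels here. The paper reports that Southern blot and PCR showed the deletion in its knockout line. It also reports knockout testis reads lower than wildtype over most exons and higher over the last ones.

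Several libraries stood apart before any member was looked at. The late spermatid gene *Prm1* was at 2579, 1299 and 930 RPKM in the spermatids of wildtype 178, wildtype 351 and knockout 544, but at 0.579 RPKM in those of wildtype 648 and 2.14 RPKM in those of knockout 286. Whole testes split in the same manner: *Prm1* was at 603, 1152 and 1922 RPKM in wildtype 178, knockout 214 and knockout 273, and at 0.681, 0.850, 1.16 and 0.439 RPKM in wildtype 648 and knockouts 269, 286 and 308. The knockout 544 spermatogonia held 1402 RPKM of *Prm1*, against 92.9, 0.094 and 0.348 RPKM in the spermatogonia of wildtype 178, wildtype 648 and knockout 286. The knockout 613 primary spermatocytes lacked a value for 12787 transcripts, against 865 to 2828 in every other library, and only 12.8% of their low values fell on whole reads, against 93.1% to 94.5% elsewhere (within 0.06 of a read, which 12% would be by chance), so that library appears to have been quantified in another way.

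Markers fitted the sort labels in part. The summed level of 6 spermatogonial markers (*Zbtb16*, *Gfra1*, *Sall4*, *Uchl1*, *Kit* and *Dmrt1*) was 655, 863, 588 and 287 RPKM in the spermatogonia of wildtype 178, wildtype 648, knockout 286 and knockout 544, with *Uchl1* the most abundant in 3 of the 4 and none of them at 0. The 16 later libraries lay lower, from 14.003 to 268 RPKM, and the highest of them was the knockout 614 primary spermatocytes. Early spermatid markers summed to a median of 886 RPKM in spermatids, against 331 RPKM in secondary spermatocytes, 66.9 RPKM in primary spermatocytes and 49.8 RPKM in spermatogonia, where the knockout 544 library, at 1919 RPKM, exceeded every spermatid library (387 to 1698 RPKM). The primary spermatocyte markers, led by *Sycp3*, did not separate that stage from the one before: their median sum was 928 RPKM in primary spermatocytes and 972 RPKM in spermatogonia. In the ovary 4 of 6 late spermatid markers were listed at 0, and the granulosa cell markers summed to 1882 RPKM and the oocyte markers to 165 RPKM.

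RPKM divides reads by transcript length and library size. A gene's value here is the sum over its transcripts, which counts a read once for each overlapping transcript it fits, so sums serve to compare libraries and not genes. The members hold 31 transcripts, of which 30 have a value in every library; *Crabp1*, *Aldh1a1* and *Aldh1a2* have a single transcript each, while *Rara* and *Dhrs3* have 7 each and *Rarg* has 6. In the genome build GRCm38 the members lie on 7 chromosomes, with *Crabp1* (chr9:54764748-54773110, plus strand) and *Aldh1a2* (chr9:71215789-71296243, plus strand) on the same one, and *Stra8* (chr6:34920163-34939344, plus strand) sharing chromosome 6 with *Cyp26b1* (chr6:84571944-84593908, minus strand).

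To set the genes side by side, the single transcript with the highest mean was used, per length and in RPKM. For *Rdh10* that was a retained-intron transcript (1959 bases) and not its coding one (3587 bases). For *Rarg* and *Dhrs3* it was a coding transcript of 934 and 686 bases, while their longest coding ones have 2953 and 2337 bases. So the order compares unlike kinds of transcript. In spermatogonia the order of median levels was *Crabp1* (32.6 RPKM), *Stra8* (28.9), *Aldh1a2* (8.81), *Aldh1a1* (7.85), *Rara* (6.85), *Cyp26b1* (3.80), *Rarg* (3.07), *Dhrs3* (2.07) and *Rdh10* (1.13). Every neighbouring pair in that order overlapped over the 4 libraries, so the order inside it is not firm. In primary spermatocytes *Aldh1a2* led with a median of 31.9 RPKM (16.5 to 42.1 over 5 libraries, without knockout 613), above the next gene, *Crabp1*, at 1.97 RPKM (0.225 to 19.9), although the 2 ranges touched through the knockout 614 library. *Aldh1a2* also had the highest median in secondary spermatocytes (19.1 RPKM), spermatids (11.1 RPKM) and whole testes (26.4 RPKM). *Aldh1a1* came second in secondary spermatocytes at 9.37 RPKM, where its highest library, 13.4 RPKM, overlapped the lowest of *Aldh1a2*, 13.1 RPKM. In spermatids the next gene was *Rara* at 4.14 RPKM (3.18 to 9.99), whose range overlapped that of *Aldh1a2* (8.34 to 26.3).

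**Figure D1:**
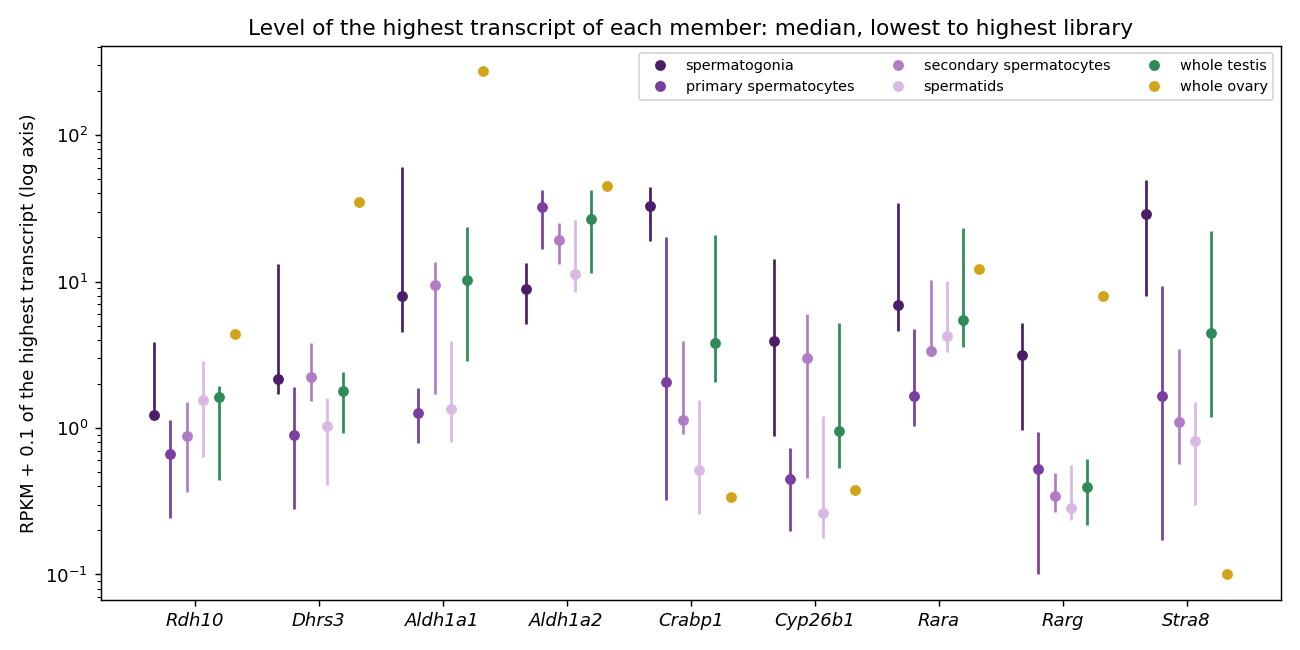
Level of the highest transcript of each member in RPKM (plus 0.1, log axis): points are medians over the libraries of a stage or tissue and lines run from the lowest to the highest library, without knockout 613. *Crabp1* and *Stra8* stood highest in spermatogonia, with medians of 32.6 and 28.9 RPKM, and *Aldh1a2* in the later stages.

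The promoters of the members that move together, and of the one that moves the other way, are shown for the letters of the retinoic acid half-site. RefSeq promoters (GRCm38.p6, 250 bases before to 50 after a start site) were present for 8 of the 9 members, *Rdh10* not among them, in 15 windows. The searched half-site was AGGTCA, and its other spellings have T for G at the 3rd base, G for A at the 1st base, or both, on both strands; capitals mark each match. Of 32851 promoters, 16.3% held AGGTCA and 43.7% held any of the 4 spellings. Among the 15 windows 3 held AGGTCA (*Stra8*, *Rara* and *Rarg*) and 5 held any spelling, the others being a second *Rara* window and an *Aldh1a1* window. The *Stra8* window (chr6:34920698-34920997, plus strand) held AGGTCA at 2 places, at positions -194 and -38 from the start, and 1.81% of all promoters held it at 2 or more. A *Rarg* window (chr15:102257473-102257772, minus strand) held it once, on the opposite strand, at position -225. The windows of *Crabp1* (chr9:54764498-54764797, plus strand) and *Aldh1a2* (chr9:71215539-71215838, plus strand) held no match, which says only that these letters are not in these windows. No member window held 2 half-sites as a direct repeat spaced by 1, 2 or 5 bases, which 0.222%, 0.268% and 0.0974% of all promoters did. A match is a description, not a site or a cause.
Stra8: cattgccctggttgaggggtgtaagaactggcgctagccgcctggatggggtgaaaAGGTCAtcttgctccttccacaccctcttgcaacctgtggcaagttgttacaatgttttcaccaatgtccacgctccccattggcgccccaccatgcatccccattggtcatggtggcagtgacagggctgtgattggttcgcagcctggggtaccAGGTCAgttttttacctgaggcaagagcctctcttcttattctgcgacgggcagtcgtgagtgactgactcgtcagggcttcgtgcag
Crabp1: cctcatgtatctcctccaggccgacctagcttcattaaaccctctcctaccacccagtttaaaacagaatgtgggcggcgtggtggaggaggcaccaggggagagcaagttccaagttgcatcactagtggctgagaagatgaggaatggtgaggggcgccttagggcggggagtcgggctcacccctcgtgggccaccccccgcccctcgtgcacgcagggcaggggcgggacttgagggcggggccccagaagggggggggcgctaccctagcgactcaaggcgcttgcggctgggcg
Rarg: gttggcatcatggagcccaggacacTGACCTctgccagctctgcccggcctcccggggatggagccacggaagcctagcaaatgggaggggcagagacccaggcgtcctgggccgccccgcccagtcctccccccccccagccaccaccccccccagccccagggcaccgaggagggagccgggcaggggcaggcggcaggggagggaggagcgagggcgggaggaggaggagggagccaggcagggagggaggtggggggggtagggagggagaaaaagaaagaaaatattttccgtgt
Aldh1a2: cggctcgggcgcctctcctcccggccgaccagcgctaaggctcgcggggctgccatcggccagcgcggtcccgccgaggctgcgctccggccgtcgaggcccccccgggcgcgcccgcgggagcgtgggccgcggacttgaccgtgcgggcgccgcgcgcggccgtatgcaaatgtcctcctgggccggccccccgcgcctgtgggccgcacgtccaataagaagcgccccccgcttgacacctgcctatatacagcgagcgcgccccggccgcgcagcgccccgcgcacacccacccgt

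The first comparison set spermatogonia against the 3 later stages. Spermatogonia are the mitotic cells in which retinoic acid acts before meiosis, and the question is which members differ in the libraries with that label. Those libraries also held meiotic genes. *Sycp3* was at 1015, 444, 697 and 196 RPKM in wildtypes 178 and 648 and knockouts 286 and 544. Of 6 primary spermatocyte markers *Dmc1* and *Sycp1* were higher there than in the later stages by the test given next, and 4 did not pass. The part of meiotic cells in these libraries was not tested. The difference is on the log2 scale of RPKM plus 0.1, averaged over genotypes, from a limma fit to all 19049 genes that passed a mean of 0.1 RPKM, with Benjamini-Hochberg adjustment over all of them. All 9 members passed the filter. Where the difference of a single mouse is given, the later stages of mouse 286 were secondary spermatocytes and spermatids only. That mouse has no primary spermatocytes, so its difference is not like those of mice 178, 544 and 648. Past an adjusted p of 0.05, 6 members were higher in spermatogonia and 1 was lower, against 27% of all genes higher and 13.3% lower. The members' median difference was 2.06, against 0.21 over all genes. After quantile normalization, which moved the all-gene median to -0.08, 3931 genes were higher and 3999 lower in place of 5147 and 2525, and 4 members remained past the threshold: *Stra8*, *Crabp1*, *Rarg* and *Aldh1a2*. In bulk RNA, fewer cells of a type and less RNA per cell cannot be told apart, and this holds for every difference given here.

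The second comparison set primary spermatocytes against spermatogonia, as labelled by the sort. It shares the spermatogonia with the first, so the 2 are not separate evidence. Here 1 member was higher and 8 were lower, against 9.53% of all genes higher and 22% lower. The members' median difference was -2.60, against -0.27 over all genes. Quantile normalization moved the all-gene median to 0.10 (3115 genes higher and 2862 lower, in place of 1816 and 4191) and kept 5 members past the threshold, namely *Stra8*, *Crabp1*, *Rarg*, *Rara* and *Aldh1a2*. In each of the 3 mice with both stages (178, 544 and 648) the 8 lower members were lower and *Aldh1a2* was higher in primary spermatocytes. With knockout libraries alone no member passed in either comparison, and neither did any of 19400 genes. The members' median differences there were 1.437 in the first and -1.875 in the second, in the same directions as with all libraries. With wildtype libraries alone 6 members passed in each, beside 5125 genes higher and 3274 lower in the first and 1993 and 3952 in the second, of 21695. The block on mouse, which gives the libraries of 1 mouse a shared term, gave 9 members in both, beside 6200 genes higher and 3627 lower in the first and 2650 and 5163 in the second.

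**Figure D2:**
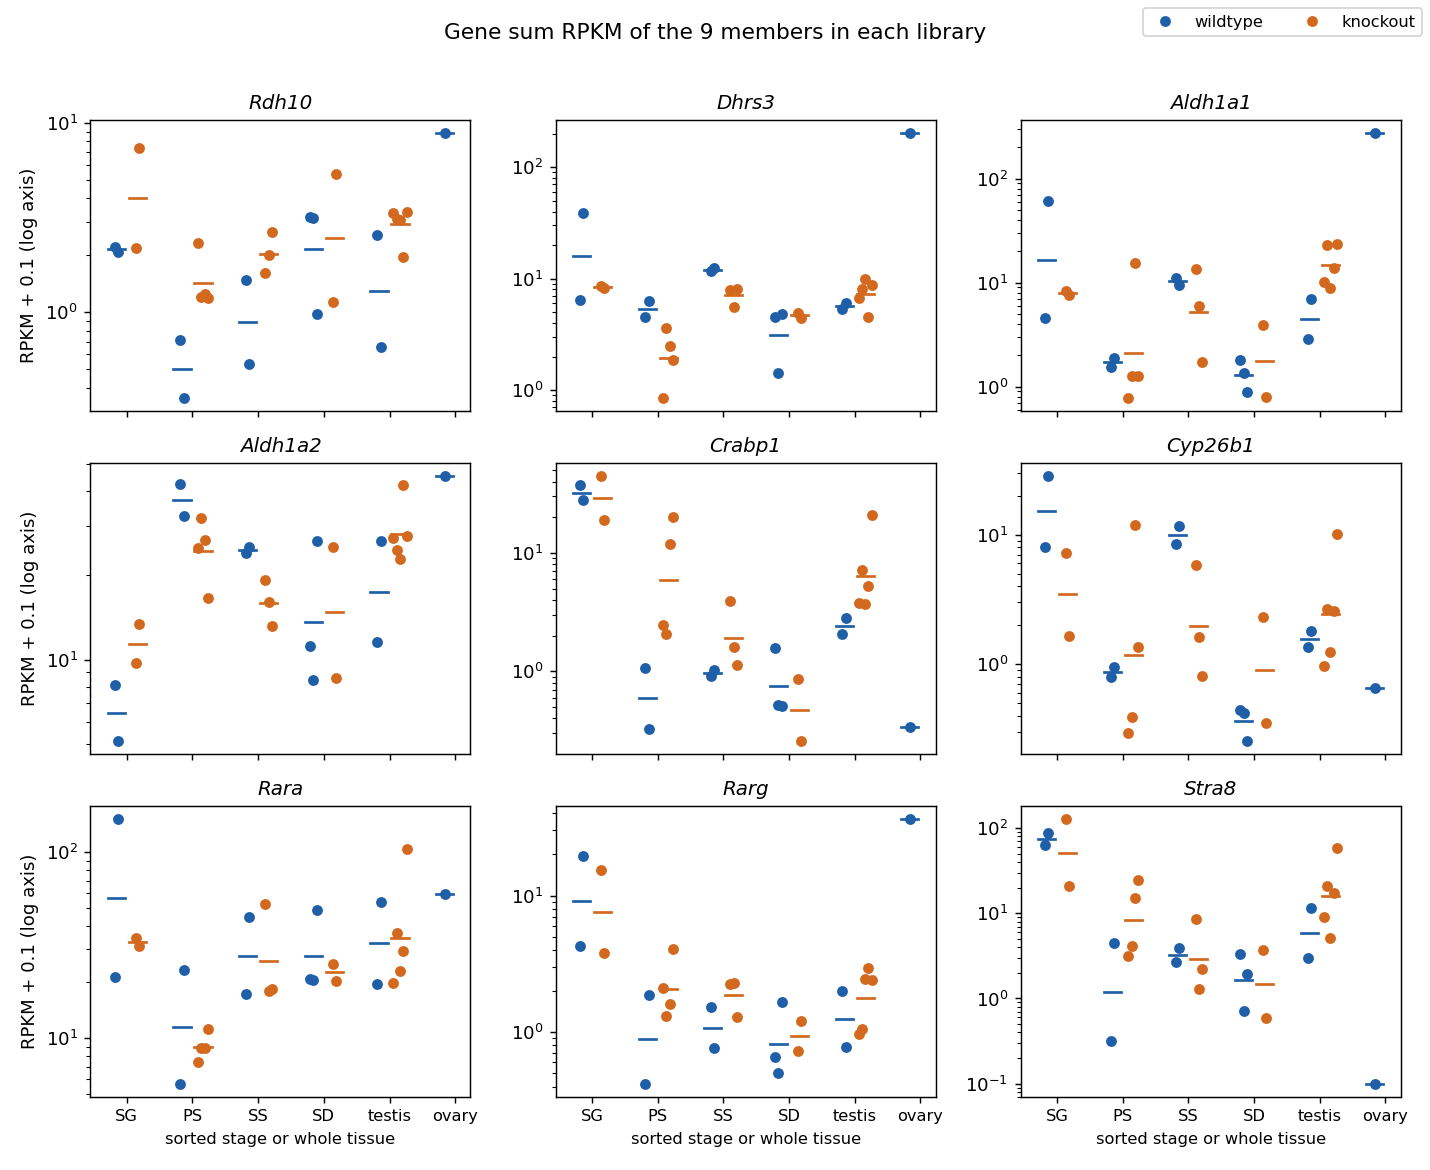
RPKM of the 9 members (sum over transcripts, plus 0.1, log axis) in each of 28 libraries, by sorted stage and tissue: SG, spermatogonia; PS, primary spermatocytes; SS, secondary spermatocytes; SD, spermatids. Points are libraries, coloured by genotype, and bars are means on the log scale; *Stra8* lay between 20.998 and 127 RPKM in spermatogonia and was listed at 0 in the ovary.

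*Rdh10* carries out the first oxidation, from retinol to retinaldehyde. It was low throughout, at 2.12, 1.98, 2.09 and 7.25 RPKM in the spermatogonia of wildtype 178, wildtype 648, knockout 286 and knockout 544. In primary spermatocytes it ran from 0.255 to 2.21 RPKM with a median of 1.10 RPKM, in secondary spermatocytes from 0.437 to 2.56 RPKM and in spermatids from 0.876 to 5.29 RPKM. The high spermatogonial value was the library that also held 1402 RPKM of *Prm1*, and stages overlapped. Its difference between spermatogonia and the later stages, 1.09, did not pass (SE 0.48, adjusted p 0.0815; over 20 alternatives 0.0138 to 0.565, the lowest from the block on mouse), although it was positive in 4 of 4 mice. Primary spermatocytes were lower than spermatogonia by a log2 difference of -1.79 (SE 0.57, adjusted p 0.0229; alternatives 0.00247 to 0.369). That call was lost without mouse 178 (0.0808), without 544 (0.0736), without 648 (0.147), without 648 and 613 (0.142), without the knockout 544 spermatogonia (0.0977), after quantile normalization (0.249) and with either genotype alone (wildtypes 0.0939).

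*Dhrs3* turns retinaldehyde back to retinol and so opposes *Rdh10*. Its spermatogonial values were 6.36 and 39.0 RPKM in wildtype 178 and 648 and 8.52 and 8.18 RPKM in knockouts 286 and 544. In the later stages it ran from 0.758 to 6.18 RPKM in primary spermatocytes, from 5.46 to 12.3 RPKM in secondary spermatocytes and from 1.33 to 4.87 RPKM in spermatids. Primary spermatocytes and spermatids lay wholly below spermatogonia, while secondary spermatocytes overlapped them. It was higher in spermatogonia than in the later stages by 1.25 (SE 0.46, adjusted p 0.037; alternatives 0.00857 to 0.401), in 4 of 4 mice. The difference ran from 0.06 in mouse 178 to 2.44 in 648, and was 0.70 in the fit without mouse 648. That call was lost without mouse 286 (0.149), without 544 (0.109), without 648 (0.349), without 648 and 613 (0.309), without the knockout 544 spermatogonia (0.0677), after quantile normalization (0.179) and with either genotype alone (wildtypes 0.142). From spermatogonia to primary spermatocytes it changed by -1.85 (SE 0.54, adjusted p 0.0148; alternatives 0.00231 to 0.230), a call lost without mouse 286 (0.0568), without 544 (0.0556), without 648 (0.174), without 648 and 613 (0.141), after quantile normalization (0.0675) and with either genotype alone (wildtypes 0.230).

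*Aldh1a1* oxidises retinaldehyde to retinoic acid and is known in the testis chiefly from somatic cells. Spermatogonia held 4.43 RPKM in wildtype 178, 60.3 in wildtype 648, 8.19 in knockout 286 and 7.52 in knockout 544. Primary spermatocytes ran from 0.686 to 15.3 RPKM with a median of 1.31 RPKM, secondary spermatocytes held 11.028, 9.37, 13.4, 5.90 and 1.62 RPKM in wildtypes 178 and 648 and knockouts 286, 544 and 550, and spermatids ran from 0.698 to 3.81 RPKM. Wildtype 648 was far above the other spermatogonia, knockout 613 was the highest of the primary spermatocytes, and secondary spermatocytes overlapped spermatogonia. Leaving out mouse 648 moved the log2 difference between spermatogonia and later stages from 2.06 to 1.08. For primary spermatocytes against spermatogonia it moved the difference from -2.60 to -1.73. The difference between spermatogonia and later stages was 2.06 (SE 0.74, adjusted p 0.0349; alternatives 0.00846 to 0.530), positive in 4 of 4 mice. It lost the call without mouse 286 (0.0739), without 544 (0.121), without 550 (0.0582), without 648 (0.422), without 648 and 613 (0.179), without the knockout 544 spermatogonia (0.0652), with no filter (0.0537), after quantile normalization (0.115) and with knockout libraries alone. Between spermatogonia and primary spermatocytes the difference was -2.60 (SE 0.87, adjusted p 0.03; alternatives 0.00429 to 0.473), lost without mouse 286 (0.0694), without 544 (0.0884), without 648 (0.326), without 648 and 613 (0.0738), without the knockout 544 spermatogonia (0.0515), after quantile normalization (0.123) and with knockout libraries alone.

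*Aldh1a2*, the other retinaldehyde dehydrogenase, ran the other way. It stood at 7.999 and 5.04 RPKM in the spermatogonia of wildtypes 178 and 648 and at 9.61 and 13.3 RPKM in those of knockouts 286 and 544. In primary spermatocytes it held 42.1 and 32.4 RPKM in wildtypes 178 and 648, and 25.0, 31.9, 26.7 and 16.5 RPKM in knockouts 544, 550, 613 and 614. All 6 primary spermatocyte libraries lay above all 4 spermatogonia. Secondary spermatocytes held 24.0, 25.1, 19.1, 15.9 and 13.1 RPKM (wildtypes 178 and 648, knockouts 286, 544 and 550) and spermatids 11.1, 8.34, 26.3, 25.2 and 8.50 RPKM (wildtypes 178, 351 and 648, knockouts 286 and 544). The 2 spermatid libraries above 25 RPKM were the 2 with *Prm1* near 0. Primary spermatocytes exceeded spermatogonia by 1.81 (SE 0.41, adjusted p 0.0034; alternatives 0.000691 to 0.358), with 2.38, 0.91 and 2.66 in mice 178, 544 and 648; leaving out any 1 mouse kept the call, and knockout libraries alone lost it. Against all later stages spermatogonia were lower by a difference of -1.25 (SE 0.35, adjusted p 0.00961; alternatives 0.000706 to 0.567), a call lost without mouse 286 (0.0933), without 648 (0.0978), without 648 and 613 (0.0876) and with knockout libraries alone.

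*Crabp1* binds retinoic acid in the cytoplasm. It was at 37.5 and 27.7 RPKM in the spermatogonia of wildtypes 178 and 648 and at 44.3 and 18.9 RPKM in those of knockouts 286 and 544. Primary spermatocytes held 0.975 and 0.225 RPKM in wildtypes 178 and 648 and 2.37, 1.97, 11.8 and 19.9 RPKM in knockouts 544, 550, 613 and 614. Only the knockout 614 library reached the spermatogonial range, where it passed the knockout 544 library. Secondary spermatocytes lay at 0.807, 0.930, 3.84, 1.499 and 1.04 RPKM (wildtypes 178 and 648, knockouts 286, 544 and 550), and spermatids at 1.47, 0.419, 0.411, 0.766 and 0.16 RPKM (wildtypes 178, 351 and 648, knockouts 286 and 544), all below every spermatogonial library. Spermatogonia exceeded the later stages by 4.74 (SE 0.59, adjusted p 7.56e-05; alternatives 1.26e-06 to 0.152), from 4.24 to 5.65 in the 4 mice. Primary spermatocytes differed from spermatogonia by -4.04 (SE 0.70, adjusted p 0.000773; alternatives 3.67e-05 to 0.298). Of 20 alternatives, the use of knockout libraries alone was the one that lost either call.

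*Cyp26b1* breaks retinoic acid down, and in the testis it is known chiefly from somatic cells around and within the tubule. Its spermatogonial values were 8.01 and 28.3 RPKM in wildtypes 178 and 648 and 7.11 and 1.56 RPKM in knockouts 286 and 544. Primary spermatocytes ran from 0.195 to 11.8 RPKM with a median of 0.770 RPKM, secondary spermatocytes held 8.37, 11.7, 5.78, 1.51 and 0.712 RPKM (wildtypes 178 and 648, knockouts 286, 544 and 550), and spermatids ran from 0.156 to 2.21 RPKM. Wildtype 648 led the spermatogonia, knockout 613 led the primary spermatocytes with the next, knockout 614, at 1.25 RPKM, and all stages overlapped. The difference between spermatogonia and later stages was 2.40 (SE 0.79, adjusted p 0.0231; alternatives 0.0025 to 0.632), positive in 4 of 4 mice. It lost the call without mouse 178 (0.0699), without 286 (0.0885), without 648 (0.218), without 648 and 613 (0.0748), after quantile normalization (0.0603) and with knockout libraries alone. For primary spermatocytes against spermatogonia it was -2.85 (SE 0.93, adjusted p 0.0268; alternatives 0.00257 to 0.651), lost without mouse 178 (0.108), without 286 (0.0995), without 550 (0.0523), without 648 (0.236), without 648 and 613 (0.0557), with the highest transcript in place of the sum (0.0579), after quantile normalization (0.104) and with knockout libraries alone.

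*Rara* encodes the receptor that in the testis is known from Sertoli cells and germ cells. It held 21.3 and 150.4 RPKM in the spermatogonia of wildtypes 178 and 648 and 34.5 and 31.0 RPKM in those of knockouts 286 and 544. Primary spermatocytes ran from 5.58 to 23.1 RPKM with a median of 8.73 RPKM, reaching the spermatogonial range only in wildtype 648, while secondary spermatocytes (17.2 to 52.8 RPKM) and spermatids (20.3 to 48.5 RPKM) overlapped spermatogonia. Mouse 648 was the highest library at 3 of the 4 stages. The fall from spermatogonia to primary spermatocytes was -2.09 (SE 0.57, adjusted p 0.00999; alternatives 0.000756 to 0.163), held without any 1 mouse and was lost with either genotype alone (wildtypes 0.122). Against all later stages the difference of 1.19 did not pass (SE 0.48, adjusted p 0.0585, alternatives 0.00843 to 0.411). It passed with the block on mouse (0.00843) and without mouse 178. The difference was 0.75, 1.16 and 2.03 in mice 178, 544 and 648. In mouse 286, which has no primary spermatocytes, it was -0.08.

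*Rarg* encodes the receptor known from differentiating spermatogonia. Its spermatogonia held 4.15 and 19.2 RPKM in wildtypes 178 and 648 and 15.2 and 3.67 RPKM in knockouts 286 and 544. Primary spermatocytes held 0.320 and 1.78 RPKM in wildtypes 178 and 648 and 2.01, 1.21, 1.51 and 3.99 RPKM in knockouts 544, 550, 613 and 614. They overlapped spermatogonia only between knockout 614 and knockout 544. Secondary spermatocytes (0.661 to 2.19 RPKM) and spermatids (0.402 to 1.57 RPKM) lay below all spermatogonia. The difference between spermatogonia and later stages was 2.80 (SE 0.53, adjusted p 0.000752; alternatives 9.37e-05 to 0.191), and between primary spermatocytes and spermatogonia -2.61 (SE 0.62, adjusted p 0.00469; alternatives 0.00119 to 0.245). Both calls held without any 1 mouse and were lost with knockout libraries alone, and in the 4 mice spermatogonia were higher by 1.07 to 3.85.

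*Stra8* is the target that retinoic acid switches on before meiosis. It was at 63.5 and 87.1 RPKM in the spermatogonia of wildtypes 178 and 648 and at 127 and 20.998 RPKM in those of knockouts 286 and 544. Primary spermatocytes held 0.219 and 4.37 RPKM in wildtypes 178 and 648 and 3.04, 4.002, 14.994 and 24.6 RPKM in knockouts 544, 550, 613 and 614. Of the *Stra8* transcripts 1 had a value in the knockout 613 library only, at 6.65 RPKM, and is part of the 14.994 RPKM given for it. Knockout 614 was again the library that reached into the spermatogonial range. Secondary spermatocytes held 2.61, 3.77, 8.53, 1.18 and 2.10 RPKM (wildtypes 178 and 648, knockouts 286, 544 and 550) and spermatids 3.19, 0.609, 1.82, 3.58 and 0.489 RPKM (wildtypes 178, 351 and 648, knockouts 286 and 544), all below every spermatogonial library. Spermatogonia exceeded the later stages by 4.65 (SE 0.75, adjusted p 0.000246; alternatives 5.84e-06 to 0.179), with 5.49, 4.50, 3.98 and 4.76 in mice 178, 286, 544 and 648. Primary spermatocytes differed by -4.30 (SE 0.88, adjusted p 0.00185; alternatives 0.000114 to 0.297), lower in 3 of 3 mice. Both calls held without any 1 mouse, and among 20 alternatives only the restriction to knockout libraries lost them. Removing the knockout 544 spermatogonia with the high *Prm1* kept *Stra8*, *Crabp1* and *Rarg* past the threshold in both comparisons. It took the member counts to 5 and 7, losing *Aldh1a1* (2.09, adjusted p 0.0652) and *Dhrs3* (1.27, 0.0677) in the first and *Aldh1a1* (-2.63, 0.0515) and *Rdh10* (-1.36, 0.0977) in the second. Of these differences that of *Rdh10* was smaller than with the library, and the others were not.

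**Figure D3:**
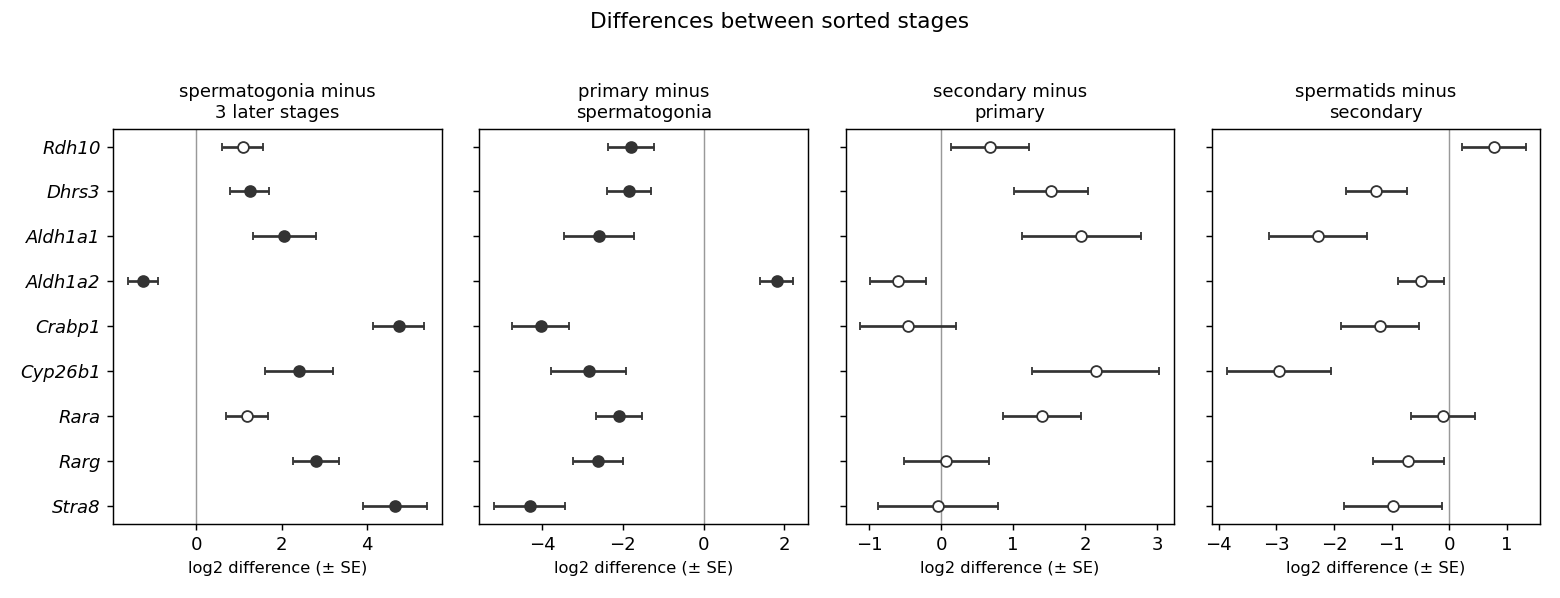
Log2 differences of the 9 members between sorted stages, with bars of 1 SE from the limma fit; filled points passed an adjusted p of 0.05 and open points did not. *Stra8* and *Crabp1* differed most between spermatogonia and the later stages, by 4.65 and 4.74, and *Aldh1a2* alone was lower in spermatogonia.

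Somatic markers moved with part of these differences. The 6 peritubular and stromal markers (*Acta2*, *Myh11*, *Cnn1*, *Pdgfra*, *Col1a1* and *Dcn*) summed to 123, 776, 177 and 27.9 RPKM in the spermatogonia of wildtype 178, wildtype 648, knockout 286 and knockout 544, *Dcn* being the most abundant in each and none being at 0. In primary spermatocytes the sum was 2.39 and 11.8 RPKM in wildtypes 178 and 648 and 4.25, 4.25, 41.0 and 5.99 RPKM in knockouts 544, 550, 613 and 614. In secondary spermatocytes it was 21.7, 119, 93.6, 16.6 and 10.1 RPKM (wildtypes 178 and 648, knockouts 286, 544 and 550), and in spermatids 5.39, 4.17, 5.29, 24.1 and 2.59 RPKM (wildtypes 178, 351 and 648, knockouts 286 and 544). The libraries with high *Cyp26b1* and *Aldh1a1*, wildtype 648 spermatogonia and knockout 613 among the primary spermatocytes, were the highest of their stage on this list too. Of the 6 markers 5 were higher in spermatogonia than in the later stages, as were 5 of 6 macrophage markers, 2 of 6 endothelial markers, 2 of 5 tested Sertoli cell markers, 2 of 5 tested granulosa cell markers, 1 of 3 tested oocyte markers (with 1 lower) and 0 of 6 Leydig cell markers, where 27% of all genes were higher and 13.3% lower. Of the germ cell lists, 6 of 6 spermatogonial, 2 of 6 primary spermatocyte, 0 of 6 early spermatid and 0 of 6 late spermatid markers were higher in spermatogonia. Over the 20 sorted libraries, which share mice and stages, the log2 sum of the stromal list had a Pearson r of 0.91 with *Cyp26b1*, 0.89 with *Aldh1a1*, 0.77 with *Stra8*, 0.70 with *Dhrs3*, 0.69 with *Rara*, 0.67 with *Rarg*, 0.63 with *Crabp1*, -0.04 with *Rdh10* and -0.40 with *Aldh1a2*. The Sertoli cell sum had an r of 0.83 with *Aldh1a1*, 0.79 with *Cyp26b1* and 0.73 with both *Dhrs3* and *Rara*. The macrophage sum had one of 0.87, 0.80 and again 0.73 with the same genes. The Leydig cell sum had an r of 0.83 with *Aldh1a1* and 0.73 with *Cyp26b1*, and the granulosa cell sum one of 0.90 and 0.86. The spermatogonial marker sum had an r of 0.95 with *Crabp1*, 0.90 with *Stra8* and 0.87 with *Rarg*, and 0.59, 0.54, 0.29 and 0.28 with *Cyp26b1*, *Aldh1a1*, *Rara* and *Dhrs3*. These are descriptions over libraries that differ by stage, and the part of somatic cells in the members' differences was not tested.

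Of the other somatic lists, those of Leydig cells, Sertoli cells and macrophages had their highest sorted value in the wildtype 648 spermatogonia, while the endothelial list peaked in the knockout 613 primary spermatocytes (34.6 RPKM) and the granulosa cell list in the knockout 286 secondary spermatocytes (17.2 RPKM). Leydig cell markers summed to 328 RPKM in the wildtype 648 spermatogonia, with *Cyp17a1* at 159.8 RPKM, against 15.1, 10.7 and 24.2 RPKM in those of wildtype 178, knockout 286 and knockout 544. The Sertoli cell list, in which *Wt1* was the most abundant gene and *Rhox5* was listed at 0, summed to 51.1, 100.2, 55.1 and 59.2 RPKM in the spermatogonia of wildtype 178, wildtype 648, knockout 286 and knockout 544. Macrophage markers, led by *Cd68*, summed to 14.6, 60.3, 8.89 and 8.61 RPKM in the same order. In that wildtype 648 library *Rara* (150.4 RPKM), *Aldh1a1* (60.3 RPKM), *Dhrs3* (39.0 RPKM), *Cyp26b1* (28.3 RPKM) and *Rarg* (19.2 RPKM) each had their highest sorted value, while *Stra8* and *Crabp1* did not.

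**Figure D4:**
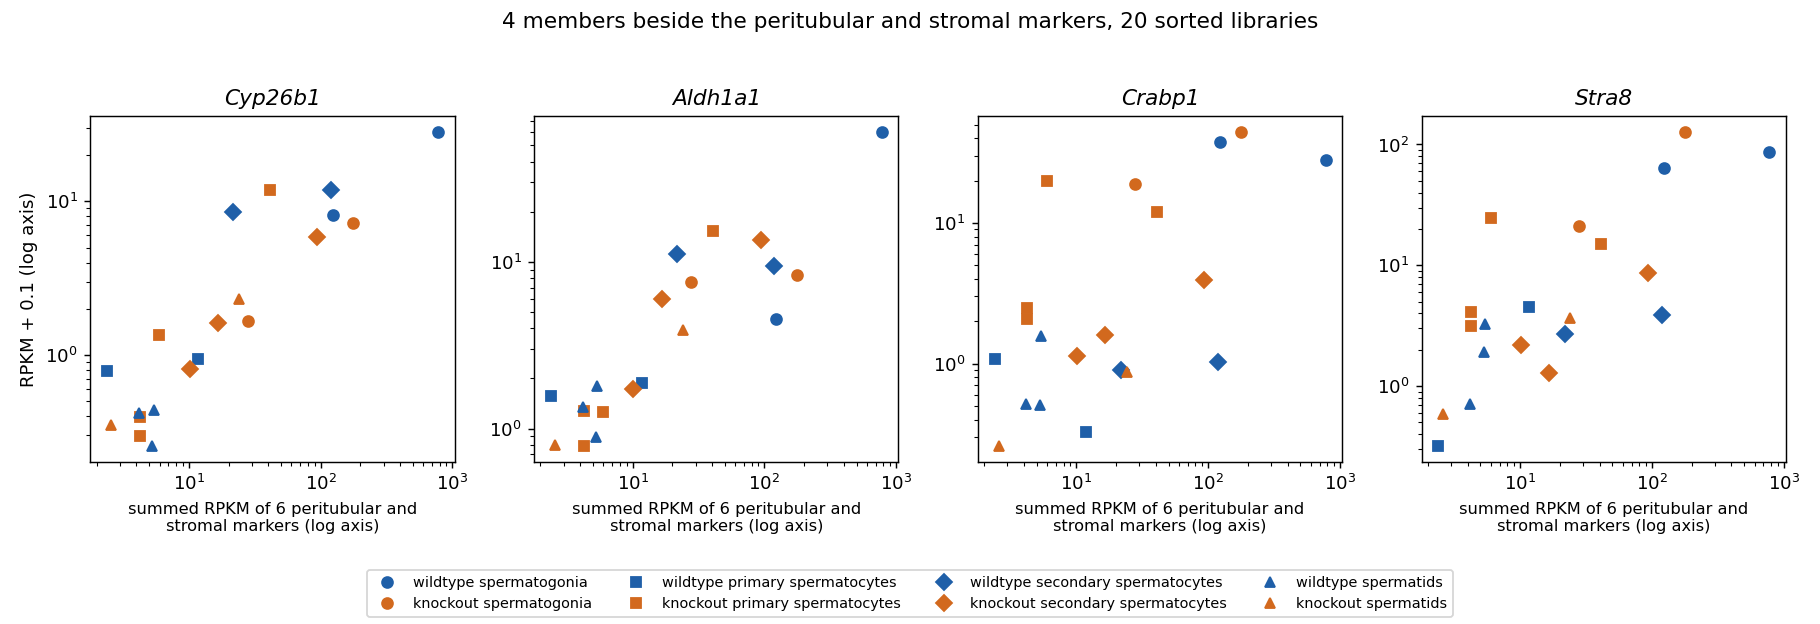
RPKM of *Cyp26b1*, *Aldh1a1*, *Crabp1* and *Stra8* (plus 0.1, log axis) against the summed RPKM of 6 peritubular and stromal markers (log axis) in 20 sorted libraries; marker shape gives the stage and colour the genotype. *Cyp26b1* and *Aldh1a1* rose along the marker sum (Pearson r 0.91 and 0.89 on log2 values). *Crabp1* and *Stra8* had an r of 0.63 and 0.77 with it. They were also high in knockout 614 primary spermatocytes at a marker sum of 5.99 RPKM.

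From primary to secondary spermatocytes, the products of the first meiotic division, 0 of 9 members passed in the limma fit and 4 had an unadjusted p under 0.05, as did 4127 of 19049 genes. Past the threshold were 2.85% of all genes as higher and 0.194% as lower. The all-gene split was 543 higher and 37 lower, and 308 and 223 after quantile normalization, which moved the all-gene median from 0.18 to -0.12. The 4 were *Dhrs3* (1.52, adjusted p 0.0969, alternatives 0.0184 to 0.814), *Rara* (1.40, 0.14, 0.0182 to 0.825), *Cyp26b1* (2.14, 0.168, 0.0227 to 0.784) and *Aldh1a1* (1.94, 0.180, 0.0444 to 0.644), each higher in secondary spermatocytes in 4 of 4 mice. With the block on mouse all 4 passed, at 0.0184, 0.0182, 0.0227 and 0.0485, beside 2865 genes higher and 926 lower. Without mouse 613, whose library lies with the primary spermatocytes and appears to have been quantified in another way, *Cyp26b1* (0.0326) and *Aldh1a1* (0.0444) passed, beside 1545 genes higher and 166 lower. The means of *Stra8* (-0.04, SE 0.84) and *Rarg* (0.07, SE 0.59) averaged opposite moves: *Stra8* changed by 3.09 in mouse 178 and by -1.29 in 544, and *Rarg* by 1.87 in 178 and by -1.31 in 648. *Crabp1* (-0.45, SE 0.66) ran from -0.87 in mouse 550 to 1.66 in 648.

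From secondary spermatocytes to spermatids, 0 of 9 members passed in the limma fit and 3 had an unadjusted p under 0.05, as did 3362 of 19049 genes. Past the threshold were 0.00525% of all genes as higher and 0.535% as lower. The 3 were *Cyp26b1* (-2.96, adjusted p 0.121, alternatives 0.0105 to 1), *Aldh1a1* (-2.27, 0.181, 0.0385 to 1) and *Dhrs3* (-1.26, 0.224, 0.120 to 1), each lower in spermatids in 4 of 4 mice. With the block on mouse *Cyp26b1* (0.0105) and *Aldh1a1* (0.0385) passed, beside 97 genes higher and 1884 lower. Without mouse 613 *Cyp26b1* did (0.0484), beside 2 and 330 genes. The all-gene split was 1 higher and 102 lower, and 4 and 13 after quantile normalization, which moved the median from -0.33 to -0.05. So *Cyp26b1*, *Aldh1a1* and *Dhrs3* had higher values in secondary spermatocytes than in the stages on either side, in every mouse with the neighbouring libraries, and several somatic marker sums had the same course by their medians. These were 5.12, 21.7 and 5.29 RPKM for the stromal, 6.50, 40.3 and 4.66 RPKM for the Leydig cell, 5.05, 42.2 and 7.22 RPKM for the Sertoli cell and 2.35, 10.1 and 3.69 RPKM for the macrophage list. Of the macrophage markers 3 of 6 passed as higher at the first step and 1 as lower at the second, and of the other 3 lists 0 passed at either in the limma fit. At an unadjusted p under 0.05 were 4 stromal, 5 Leydig cell and 2 Sertoli cell markers at the first step and 2, 5 and 2 at the second; the part of these cells was not tested.

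Genes of the same pathway outside the 9 were read from lists written with earlier results of these data known. Of 17 genes for uptake and synthesis 15 were tested, 6 being higher and 3 lower in spermatogonia than in the later stages; the shares over all genes, for this list and those that follow, were 27% and 13.3%. *Rbp4*, which carries retinol (3.86, SE 0.41, adjusted p 5.7e-05), and the alcohol dehydrogenase *Adh5* (3.67, SE 0.58, adjusted p 0.000222) were among the higher ones. *Lrat*, which stores retinol as esters, and the retinol dehydrogenases *Rdh11* and *Dhrs4* were the 3 lower ones, and *Rdh11* had medians of 32.6 RPKM in spermatogonia and 247 RPKM in primary spermatocytes. Of 7 further genes for binding and degradation 6 were tested and 3 were higher in spermatogonia: *Cyp26a1*, *Cyp2s1* and *Fabp5*. *Cyp26a1*, the close relative of *Cyp26b1*, was low, with 0.106 to 0.822 RPKM in spermatogonia and a median of 0 in primary spermatocytes.

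Of 13 further receptors and coregulators 12 were tested and 5 were higher in spermatogonia, *Rxra* among them. *Rxra*, the dimer partner of the receptors, ran from 16.3 to 61.4 RPKM in spermatogonia and from 1.52 to 10.8 RPKM in primary spermatocytes. *Rarb*, the remaining retinoic acid receptor, stayed between 0 and 0.603 RPKM over the sorted stages. Of 18 genes that respond to retinoic acid or act beside it in germ cells 17 were tested, with *Meiosin* not matched in the table; 10 were higher in spermatogonia and 1, *Dmrtb1*, was lower. Of those 10, *Dmrt1*, *Gfra1*, *Kit*, *Sall4* and *Zbtb16* are also on the list of spermatogonial markers, so the counts are not separate. In the second comparison, primary spermatocytes against spermatogonia, these lists gave 3 higher and 5 lower of 15, 0 and 3 of 6, 1 and 5 of 12, and 1 and 11 of 17, beside 9.53% and 22% of all genes. *Kit* ran beside *Stra8*, from 18.2 to 183 RPKM in spermatogonia and from 0.584 to 15.6 RPKM in primary spermatocytes. *Rec8*, a meiotic cohesin gene that also responds to retinoic acid, was lower in primary spermatocytes than in spermatogonia (-2.21, SE 0.63, adjusted p 0.0128) and higher again in secondary spermatocytes (3.08, SE 0.60, adjusted p 0.015).

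The members' correlations over the 20 sorted libraries are given as a description, since libraries share mice and stages. *Stra8* had a Pearson r of 0.89 with *Crabp1*, 0.85 with *Rarg* and 0.65 with *Cyp26b1*, *Cyp26b1* one of 0.93 with *Aldh1a1*, and *Dhrs3* one of 0.73 with *Rara*, 0.70 with *Aldh1a1* and 0.64 with *Cyp26b1*. *Aldh1a2* had negative r with all 8 others, the lowest being -0.69 with *Rdh10*. Among 13294 genes with a mean of at least 1 RPKM, the 3 most alike to *Stra8* were *Dmrt1* (0.974), *Prep* (0.97) and *Serpine2* (0.968), and to *Crabp1* they were *Pth1r* (0.958), *Isoc1* (0.958) and *Tspan14* (0.956). Those most like *Rarg* were *Slc27a2* (0.932), *D630045J12Rik* (0.927) and *Pole* (0.922), and those most like *Rara* were *Brwd3* (0.898), *Tgfbr3* (0.894) and *Mum1l1* (0.886). *Aldh1a2* was most like *Kat5* (0.955), *Mtmr9* (0.95) and *Ano5* (0.941), and *Rdh10* most like *Rnf4* (0.947), *Gm20518* (0.941) and *Znrf3* (0.937). *Aldh1a1* had an r of 0.942 with the stromal marker *Pdgfra* and of 0.941 with *C1ra*. *Cyp26b1* was closest to *Ms4a4d* (0.965), *Nid1* (0.952) and *Adamts5* (0.952), and *Dhrs3* to *Foxp4* (0.854), *Ifi207* (0.851) and *Sgsh* (0.843).

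The next comparisons set knockout against wildtype within each sorted stage and in whole testes. They ask whether loss of *Csmd1* exon 1 goes with a changed retinoic acid pathway at a given step of germ cell development. No member passed in any of them: 0 of 9 in spermatogonia, primary spermatocytes, secondary spermatocytes, spermatids and whole testes in the limma fit. Over all 19049 genes tested in sorted cells and 22776 tested in whole testes, 0% were higher and 0% lower in each, so these counts cannot set the members apart from other genes. Leaving out 1 mouse changed the all-gene counts most in spermatogonia without knockout 286 and in whole testes without wildtype 648. Each left a genotype with 1 library assumed to vary like the others, so these counts are not read here. The knockout spermatogonia left were those of 544, with 1402 RPKM of *Prm1*. In these fits the members' median differences were -0.94 in spermatogonia and 0.84 in whole testes. At an unadjusted p under 0.05 there were 1018, 1670, 549, 139 and 2493 genes in the order just given, and 0, 2, 0, 0 and 1 members. The members' median differences were -0.52, 0.43, -0.16, 0.18 and 0.69, against all-gene medians of 0.07, 0.41, 0.21, 0.14 and 0.39. Groups held 2 to 5 libraries, and a difference that misses the threshold is not shown to be absent.

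*Crabp1* and *Stra8* were the 2 members with an unadjusted p under 0.05 in primary spermatocytes. As given above, *Crabp1* was at 0.975 and 0.225 RPKM in the wildtype libraries and at 1.97 to 19.9 RPKM in the 4 knockout libraries, and *Stra8* at 0.219 and 4.37 RPKM against 3.04 to 24.6 RPKM. The *Crabp1* ranges did not overlap and those of *Stra8* did. The share of all genes whose ranges do not overlap is not given here, so this does not set *Crabp1* apart. For both genes knockouts 613 and 614 were the high libraries. The knockout minus wildtype difference was 3.32 for *Crabp1* (SE 0.91, adjusted p 0.237; alternatives 0.128 to 1) and 2.80 for *Stra8* (SE 1.15, adjusted p 0.496; alternatives 0.249 to 1). Leaving out 1 mouse at a time moved the *Crabp1* difference between 2.46 (without 648) and 4.19 (without 178) and that of *Stra8* between 0.90 (without 178) and 4.71 (without 648). Summed over transcripts with a value in every library, the *Stra8* difference was 2.59.

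Germ cell markers of other stages had median differences above 0 in these libraries as well. The spermatogonial sum was 19.6 and 16.4 RPKM in the wildtype primary spermatocytes of mice 178 and 648, and 92.5, 44.9, 73.8 and 268 RPKM in those of knockouts 544, 550, 613 and 614, with *Uchl1* the most abundant in all 6 and no marker at 0. Knockout 614, the highest on this list, was the highest for *Stra8*, *Crabp1* and *Rarg* as well. The late spermatid markers summed to 159 and 41.6 RPKM in the same wildtypes and to 269, 375, 313 and 446 RPKM in the same knockouts, led by *Prm2* or *Smcp*. For early spermatid markers the sums were 53.6 and 47.0 RPKM against 80.1, 112, 51.3 and 150.006 RPKM, led by *Spata18*, and none of either list was at 0. In the limma test of genotype 0 of 6 markers passed on each of these 3 lists, 3 spermatogonial, 0 late spermatid and 0 early spermatid markers having an unadjusted p under 0.05. The median differences were 2.22, 3.10 and 1.28. The part of RNA from other germ cell stages in the differences of *Crabp1* and *Stra8* was not tested. Libraries also fall into sets by how many transcripts lack a value, and the 1 wildtype and 1 knockout library of the same set, 648 and 614, differed by 5.94 for *Crabp1* and 2.46 for *Stra8*. In the other stages such a comparison, of wildtype 178 with knockout 286 (and wildtype 351 among the spermatids), gave 1, 1.67 and 1.27 for *Stra8* in spermatogonia, secondary spermatocytes and spermatids, where the fit to all libraries gave -0.52, -0.16 and -0.16. For *Crabp1* it gave 0.24, 2.12 and -0.06, where the fit gave -0.15, 0.9955 and -0.65. *Prm1* differed between these libraries too, at 92.9, 124 and 2579 RPKM in wildtype 178 against 0.348, 1.99 and 2.14 RPKM in knockout 286. With 1 or 2 libraries per genotype mouse and genotype cannot be told apart, and the sets partly follow genotype: the sorted libraries of 544 and 550, both knockouts, form a set without a sorted wildtype.

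*Rdh10*, *Dhrs3* and *Aldh1a2* also had ranges that did not overlap between genotypes in primary spermatocytes, without an unadjusted p under 0.05. The share of all genes whose ranges do not overlap is not given here, so such ranges do not set the members apart from other genes. *Rdh10* was at 0.613 and 0.255 RPKM in wildtypes 178 and 648 and at 2.21, 1.11, 1.15 and 1.10 RPKM in knockouts 544, 550, 613 and 614. *Dhrs3* was higher in the wildtypes, at 4.43 and 6.18 RPKM against 0.758, 3.50, 2.39 and 1.76 RPKM, and so was *Aldh1a2*, with the values given above. Their differences were 1.51 (SE 0.74, adjusted p 0.588; alternatives 0.470 to 1), -1.46 (SE 0.70, adjusted p 0.579; alternatives 0.424 to 1) and -0.60 (SE 0.54, adjusted p 0.721; alternatives 0.629 to 1) for *Rdh10*, *Dhrs3* and *Aldh1a2*. In secondary spermatocytes the same 3 genes kept these directions, at 1.19, -0.76 and -0.63, all with an adjusted p of 1. Both stages use wildtypes 178 and 648 and share knockouts 544 and 550, so this is not separate evidence. In the other samples *Rdh10* differed by 0.90 in spermatogonia, 0.21 in spermatids and 1.17 in whole testes. In the same order *Aldh1a2* differed by 0.82, 0.12 and 0.69, and *Dhrs3* by -0.91, 0.59 and 0.36. Under the alternatives the sign changed in spermatids for *Rdh10* (-0.912 to 1.328) and *Aldh1a2* (-0.66 to 0.896). For *Dhrs3* it changed in spermatogonia (-2.209 to 0.387) and whole testes (-0.306 to 0.538). In spermatogonia the *Rdh10* ranges overlapped, with 2.09 and 7.25 RPKM in knockouts against 1.98 and 2.12 RPKM in wildtypes. Ranges without overlap occurred outside primary spermatocytes as well, and there too the share over all genes is not given. *Cyp26b1* was lower in the knockouts in spermatogonia (1.56 to 7.11 against 8.01 to 28.3 RPKM; -2.13, SE 1.41, adjusted p 0.931, alternatives 0.268 to 1) and in secondary spermatocytes (0.712 to 5.78 against 8.37 to 11.7 RPKM; -2.34, SE 1.28, adjusted p 1, alternatives 0.831 to 1). *Crabp1* was higher in knockout secondary spermatocytes (1.04 to 3.84 against 0.807 to 0.930 RPKM; 0.9955, SE 0.96, adjusted p 1, alternatives 0.895 to 1) and *Aldh1a2* in knockout spermatogonia (9.61 to 13.3 against 5.04 to 7.999 RPKM; 0.82, SE 0.62, adjusted p 0.931, alternatives 0.425 to 1). In secondary spermatocytes the ranges of *Rdh10*, *Dhrs3* and *Aldh1a2* did not overlap either.

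Whole testes held *Aldh1a1* as the single member with an unadjusted p under 0.05. It was at 2.76 and 6.93 RPKM in wildtypes 178 and 648 and at 10.1, 23.1, 8.80, 13.8 and 23.3 RPKM in knockouts 214, 269, 273, 286 and 308. The ranges did not overlap, and the share of all genes with such ranges in whole testes is not given here. The difference was 1.71 (SE 0.58, adjusted p 0.343; alternatives 0.172 to 0.999), and between 1.06 (without wildtype 178) and 2.36 (without wildtype 648) with 1 mouse left out. *Crabp1* did not overlap either, with 1.97 and 2.72 RPKM in the wildtypes and 3.69, 7.07, 3.58, 5.20 and 20.7 RPKM in knockouts 214, 269, 273, 286 and 308, and differed by 1.41 (SE 0.70, adjusted p 0.514; alternatives 0.351 to 0.999). *Stra8* overlapped, at 2.85 and 11.3 RPKM against 8.98, 21.1, 5.09, 17.1 and 58.1 RPKM in the same order.

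Cell content differed between these testes, and the study sequenced testes from before and after sexual maturity without an age for each library here. The 4 testes with *Prm1* near 0 (wildtype 648 and knockouts 269, 286 and 308) had the 4 highest values of *Stra8* and the 4 highest of *Rara* (54.2, 36.6, 29.2 and 105 RPKM, against 19.4 to 22.8 RPKM in the other 3). Their Sertoli cell marker sums were 113, 157, 99.9 and 353 RPKM, led by *Wt1*, against 55.2, 57.3 and 47.7 RPKM in wildtype 178 and knockouts 214 and 273; *Rhox5* was listed at 0 in all 7. Late spermatid markers summed to 155, 26.5, 39.6 and 8.91 RPKM in wildtype 648 and knockouts 269, 286 and 308, and to 6082, 9783 and 12125 RPKM in wildtype 178 and knockouts 214 and 273. Spermatogonial markers summed to 57.8 and 71.9 RPKM in wildtypes 178 and 648 and to 63.0, 136, 73.5, 136 and 367 RPKM in knockouts 214, 269, 273, 286 and 308, with knockout 308 highest here and for *Stra8*, *Crabp1*, *Cyp26b1*, *Rara* and, by a small margin, *Aldh1a1*. With the values given above, *Aldh1a1* was higher in knockouts 269, 286 and 308 than in 214 and 273, and higher in wildtype 648 than in 178. The part of cell content and of age in the members' values was not tested. Of the wildtypes 1 lies in each class, so the 2 wildtypes by themselves span a range of 19.4 to 54.2 RPKM for *Rara*.

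**Figure D5:**
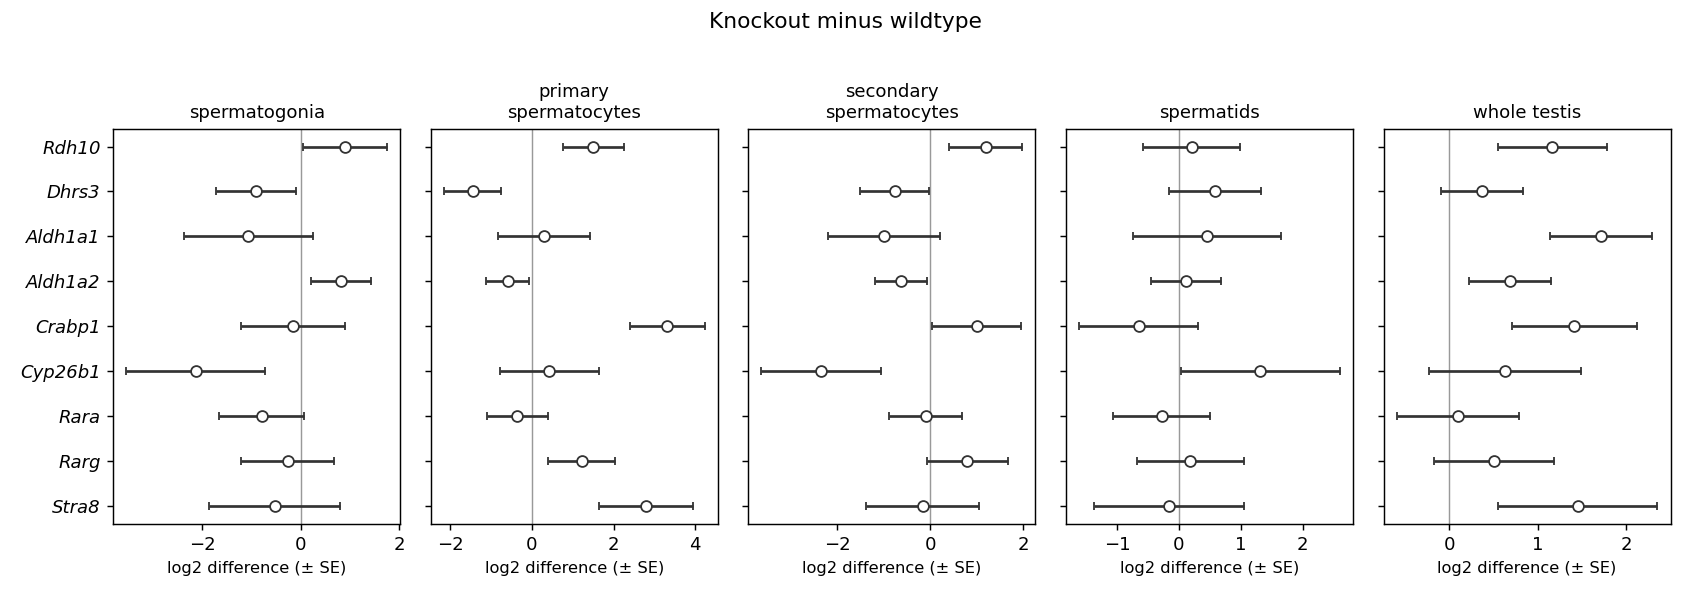
Knockout minus wildtype log2 differences of the 9 members in each sorted stage and in whole testes, with bars of 1 SE from the limma fits; all points are open since none passed an adjusted p of 0.05. *Crabp1* and *Stra8* in primary spermatocytes, at 3.32 and 2.80, and *Aldh1a1* in whole testes, at 1.71, were those with an unadjusted p under 0.05.

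Whether the genotype differences vary by stage was tested as an interaction over the 20 sorted libraries. For each of the 9 members the adjusted p was 1 in the limma F test, and *Crabp1*, with the largest F of 3.53, was the 1 member with an unadjusted p under 0.05. With the block on mouse the adjusted p ran from 0.467 (*Crabp1*) to 0.998 (*Rara* and *Rdh10*). No member is shown to respond to genotype in 1 stage and not in another.

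In mice 178, 286 and 648 a member's level in the whole testis was set against the mean of that mouse's own spermatogonia, secondary spermatocytes and spermatids. The primary spermatocytes of 178 and 648 were not used here, since mouse 286 has none. This asks how a gene's level in the organ compares with that in the sorted cells, and does not tell germ cell from somatic RNA: the median difference was 1.08 over the tested Sertoli cell markers but -0.80 over the stromal, -0.61 over the macrophage and -0.37 over the Leydig cell markers, with none of these genes past the threshold. In the limma fit to 22644 genes 0 of 9 members passed, 1 had an unadjusted p under 0.05 and 2007 genes did, against 0.102% of all genes higher and 0.0265% lower. *Cyp26b1* was that member, lower in the whole testis by -1.21, -0.85 and -1.29 in mice 178, 286 and 648 (mean -1.11, SE 0.42, adjusted p 0.392; alternatives 0.202 to 1). *Aldh1a1* was near level on average (0.01), with -0.65, 0.87 and -0.18 in the same mice. *Aldh1a2* had the highest mean, 0.66, and ran from -0.17 to 1.33. The members' median was -0.22, against 0.02 over all genes.

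The ovary was set beside the 7 testes as a contrast of organs, with no test since it is a single library. Its *Stra8* was listed at 0, while the testes ran from 2.85 to 58.1 RPKM. Taking the highest *Stra8* transcript and a floor of 3 reads, which is 0.0471 RPKM in the ovary, the ovary was at least 23.3-fold lower than the lowest testis (1.10 RPKM); the floor covers counting error only. *Crabp1* was lower as well, at 0.236 RPKM, an estimated 10 reads, against 1.97 to 20.7 RPKM in the testes. *Aldh1a1* was at 273 RPKM in the ovary and 2.76 to 23.3 RPKM in the testes, *Dhrs3* at 201 RPKM and 4.43 to 9.73 RPKM, and *Rarg* at 36.1 RPKM and 0.680 to 2.86 RPKM.

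Past a 4-fold difference from the mean of the testes, 3 members were higher in the ovary and 2 lower, against 31.2% of 23585 genes higher and 15.7% lower. The 3 were *Dhrs3* (29.5-fold), *Aldh1a1* (26.1-fold) and *Rarg* (22.5-fold), and the 2 were *Crabp1* (14.5-fold) and *Stra8*. *Rdh10* (3.80-fold), *Aldh1a2* (1.84-fold) and *Rara* (1.75-fold) were higher and *Cyp26b1* (3.27-fold) lower within the 4-fold bound. In the ovary's own order per length *Aldh1a1* led with 273 RPKM, then *Aldh1a2* with 45.1 RPKM and *Dhrs3* with 34.5 RPKM for the highest transcript, and there is no spread to set against it. Leydig cell markers, which ovarian steroid cells also express, summed to 4318 RPKM in the ovary, led by *Hsd3b1*, and Sertoli cell markers to 463 RPKM, led by *Wt1*; their part in the members' ovarian values was not tested.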

How the data were processed

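RNA-seq of polyA RNA was described by RPKM (reads scaled by transcript length and by mapped reads) per transcript, as deposited by the authors, who aligned reads with TopHat2 to Ensembl release 72 transcripts. Of 94480 transcripts 90432 (95.7%) were matched by identifier to GENCODE M21 (GRCm38), 4048 were not, and values were summed to 37206 genes; no column of values was left unused. Low values fell on whole reads in 27 of 28 libraries, from which a depth of 23820311 to 61682820 reads was estimated. The members and the lists of pathway genes and cell markers were chosen with earlier results of these data known.

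Log2 values (pseudocount 0.1 RPKM, mean of at least 0.1 RPKM) were fitted with limma 3.58.1 (R 4.3.3, trend) over 8 groups of genotype and stage, separately over whole testes, and over whole testes with the sorted cells of the same mice, with Benjamini-Hochberg adjustment over all genes and a threshold of 0.05. RPKM are not counts, so count models were not used. The lists name at most the 4 genes with the smallest adjusted p per list and contrast; other list genes in the text were chosen after their values were seen. Residuals of the same mouse had a median correlation of 0.48 over 22 pairs of libraries (-0.15 to 0.70), against -0.05 over 151 pairs of different mice, and the block correlation was 0.399. The ovary was compared by a 4-fold bound without a test. Alternatives were quantile normalization, other pseudocounts and filters, the highest transcript, a block on mouse, each genotype alone and leaving out each mouse. Tables and plots were made with Python 3.11.15, numpy 2.4.6, pandas 2.3.3 and matplotlib 3.10.9.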

Additional observations from a re-analysis of the deposited data

Results flagged for a closer look

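In 8 of 18 checks a member had 1 library far from the others of its group. Each check took 1 of the 9 members in a group of 4 to 10 libraries. Such groups were the knockout primary spermatocytes (4 libraries) and the knockout whole testes (5 libraries). The rule flags about 1 in 20 for values with a normal distribution, which was not checked for RPKM. So 8 of 18 is not read as an excess. The members share the libraries of each group, so the 8 are not independent. The check was made on RPKM and not on log2 values, and the share of all genes flagged in the same way is not given here.

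In whole knockout testes mouse 308 stood far above the others for *Rara* (104.5 RPKM, the nearest at 36.6), *Crabp1* (20.7 RPKM, the nearest at 7.07) and *Cyp26b1* (10.1 RPKM, the nearest at 2.56). Mouse 286 stood apart among the same testes for *Aldh1a2*, at 42.0 RPKM with the nearest at 27.5, and was the lowest for *Rdh10*, at 1.87 RPKM with the nearest at 2.98.

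Among knockout primary spermatocytes mouse 613 stood far above the others for *Cyp26b1* (11.8 RPKM, the nearest at 1.25) and *Aldh1a1* (15.3 RPKM, the nearest at 1.17), and mouse 544 for *Rdh10* (2.21 RPKM, the nearest at 1.15). The mouse 613 library appears to have been quantified in another way, and the part of that in its values was not tested.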

How the results depend on the processing

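Of 16 member differences past the threshold, run under 320 alternatives, 254 kept direction and side, 66 fell short of the threshold and 0 reversed. Of 74 not past it, run under 1264 alternatives, 12 passed, and 31 of the 74 changed sign at least once.

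For spermatogonia against later stages, 7 members passed, and quantile normalization gave 4, knockout libraries alone 0, the removal of mice 648 and 613 together 3, and leaving out each mouse 3 to 7. For primary spermatocytes against spermatogonia, 9 passed, and the same alternatives gave 5, 0, 5 and 5 to 9. For secondary against primary spermatocytes, 0 passed, and the block on mouse gave 4 and leaving out each mouse 0 to 2. For spermatids against secondary spermatocytes, 0 passed, and the block on mouse gave 2 and leaving out each mouse 0 to 1. Every alternative run gave 0 members in the genotype comparisons, the interaction and whole testes against sorted cells, and 5 in the ovary. These are counts of members. All-gene genotype counts moved most in spermatogonia without mouse 286 and in whole testes without 648, each leaving 1 library of a genotype. With knockouts alone (11 libraries) 0 of 19400 genes passed in the first 2 comparisons, while wildtypes alone (9 libraries) gave 6 members in each. The cause was not tested. The removal of mice 648 and 613 together, the removal of the knockout 544 spermatogonia and the sum over transcripts valued in every library were chosen after seeing the data.

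Depth limits low values: the floor of 3 reads was 0.0471 RPKM for the highest *Stra8* transcript in the ovary.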
